A study of Rattus norvegicus with 8 samples.

Results

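The enzymes that attach ubiquitin to proteins and those that remove it were compared in whole hippocampi of rats between 4 samples of rats given fluoxetine as pups (PNFLX) and 4 vehicle controls. The genes were taken by the name the array files give each probe: every name that begins with Ube1, Ube2 or Ube3, with Usp, Uchl or Uba followed by a digit, or with Otu. This rule found 68 genes on 74 spots, out of 12551 genes and unnamed probes on 15207 spots of the array. Of these, 64 genes passed the filter on dim probes, which asked for a signal well above background in 4 or more of the 8 samples, as did 9443 genes and unnamed probes in all. The other members, Usp28, Ube2t, Usp24 and Usp44, were above background on at most 1 array and are not described further. Fluoxetine is a selective serotonin reuptake inhibitor. The PNFLX group received 10 mg/kg, and the control group a 5% sucrose solution, from postnatal day 2 to day 21; both were studied at 2 months of age, and no strain, sex or genetic change is used here. The end day used is that of the treatment protocol. In the descriptions of single samples it moves on by a day with each sample, so every PNFLX sample is given a later end than every control, and the labels do not settle which is right. Each sample was hybridised to 1 single-colour array.

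Ubiquitin is a small protein that is joined to other proteins in a relay: an E1 enzyme activates it, an E2 enzyme carries it, and an E3 ligase chooses the substrate. Chains of ubiquitin send many proteins to the proteasome, while single ubiquitins and other chain types steer endocytosis, DNA repair and signalling. Deubiquitinases cut ubiquitin off again, and SUMO, NEDD8, ISG15 and UFM1 are ubiquitin-like proteins with relays of their own. In neurons the system is known for the turnover of synaptic proteins, and loss of the maternal UBE3A gene causes Angelman syndrome.

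The probes on which the following results turn are shown here because each measured value is the signal of this 60-base stretch alone. All letters are in lower case because no part is singled out, and positions are those of the array files on rn4, where a listed span longer than 60 bases is wider than the probe. Exon and UTR positions are not analysed here. The first 3 are the members of smallest p: Usp8 at chr3:114155411-114155470, Usp6nl at chr17:83140527-83145516 (listed in descending order) and Usp33 at chr2:250925141-250925813. The next 3 are members with a single sample far from the others: Usp42 at chr12:11194998-11195057, Uba3 at chr4:132147817-132147874 (descending) and Ube2n at chr7:32768600-32768844. The Usp20 sequence, at chr3:9975034-9975093, was printed on the array at 2 places.
Usp8: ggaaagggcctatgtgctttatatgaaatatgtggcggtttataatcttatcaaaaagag
Usp6nl: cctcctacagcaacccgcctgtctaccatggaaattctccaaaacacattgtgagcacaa
Usp33: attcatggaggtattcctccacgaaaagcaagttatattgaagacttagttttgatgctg
Usp42: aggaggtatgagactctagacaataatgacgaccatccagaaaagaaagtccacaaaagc
Uba3: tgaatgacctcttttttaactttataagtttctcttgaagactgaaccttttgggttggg
Ube2n: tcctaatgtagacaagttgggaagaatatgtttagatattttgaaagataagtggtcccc
Usp20: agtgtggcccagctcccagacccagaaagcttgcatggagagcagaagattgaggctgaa

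The 75th percentile of signal lay between 654 and 880 on the control arrays and between 873 and 941 on the PNFLX arrays. Over the 8 arrays 70.5% to 77.9% of probes were well above background, and arrays correlated at 0.948 to 0.983. The labels do not say that each sample is a separate animal, so p-values measure only how these samples vary, which may be technical. With 4 arrays in a group the precision is limited. The slide, 1 for all 8 arrays, held the controls in 1 row and the PNFLX samples in the other: slide row and treatment cannot be told apart. Log2 differences also moved with the place of a spot on the array: in the first 5 spot rows of 192 the median over 203 genes was 0.61, and in the last 5 rows it was -0.62 over 197 genes, against -0.05 over 7533 genes in rows 21 to 172. Markers of neurons among the probes, such as Snap25 and Stmn2, were above background in every sample.

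None of the 64 members passed limma's adjusted threshold of 0.05, where 48 of all 9443 genes did (27 higher and 21 lower in PNFLX, 0.508%). At an unadjusted p under 0.05 there were 8 members of 64, and 12.8% of all genes. The mean was higher in PNFLX for 38 members and lower for 26; their median log2 difference was 0.03 against -0.04 over all genes. These directions depend on the processing. Without scaling between arrays 57 were higher and 7 lower (median 0.33, all genes 0.26). Leaving out the scaling moves all genes measured in every sample by the same amount, so that shift is shared by construction. With normexp background correction 23 were higher and 41 lower (median -0.20, all genes -0.39). The members' median lay above that of all genes by 0.07 in the main processing and by 0.19 with normexp. The groups did not overlap for 2 members that were higher and 3 that were lower in PNFLX, against 4.46% and 6.57% of all genes, or 11.0% in both directions. These shares are near those of the array as a whole. Usp8 is counted among the 8 members and among the 3 lower ones. It was above background in the controls only and passed the filter through that group. In tissue samples such as these, fewer cells of a type and less RNA per cell cannot be told apart.

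The 95% intervals from limma hold only the scatter between samples under the main processing. The normexp alternative moved some values outside them. It starts from the mean spot signals and the median background signals, with an offset of 50, in place of the processed signals of Feature Extraction. It therefore also leaves out the detrending and the surrogates for low signals of that software, and these steps were not separated. With normexp, Usp3 differed by -0.31 (main interval 0.05 to 0.67) and Ube2j1 by -0.47 (0.01 to 0.60). Likewise Ube2d3 differed by 0.95 (-1.05 to 0.40) and Usp7 by -0.66 (-0.37 to 0.71). The 95% interval of the log2 difference lay within -1 and 1, a 2-fold change either way, for 50 of 64 members (78.1%, against 70.4% of all genes), and 44 members differed by less than 0.3. Only 5 members, Usp8, Usp33, Usp42, Uba3 and Ube2c, differed by 1 or more on the log2 scale as measured; Usp8 was not above background in PNFLX, and the differences of Usp42, Uba3 and Ube2c were under 1 in size when 1 particular sample was left out. The median SD within a group was 0.288 for the members and 0.304 for all genes. The probes used for the members had a median GC content of 41.7%, against 45.0% for all genes, and 57 of 64 were above background on all 8 arrays.

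**Figure D1:**
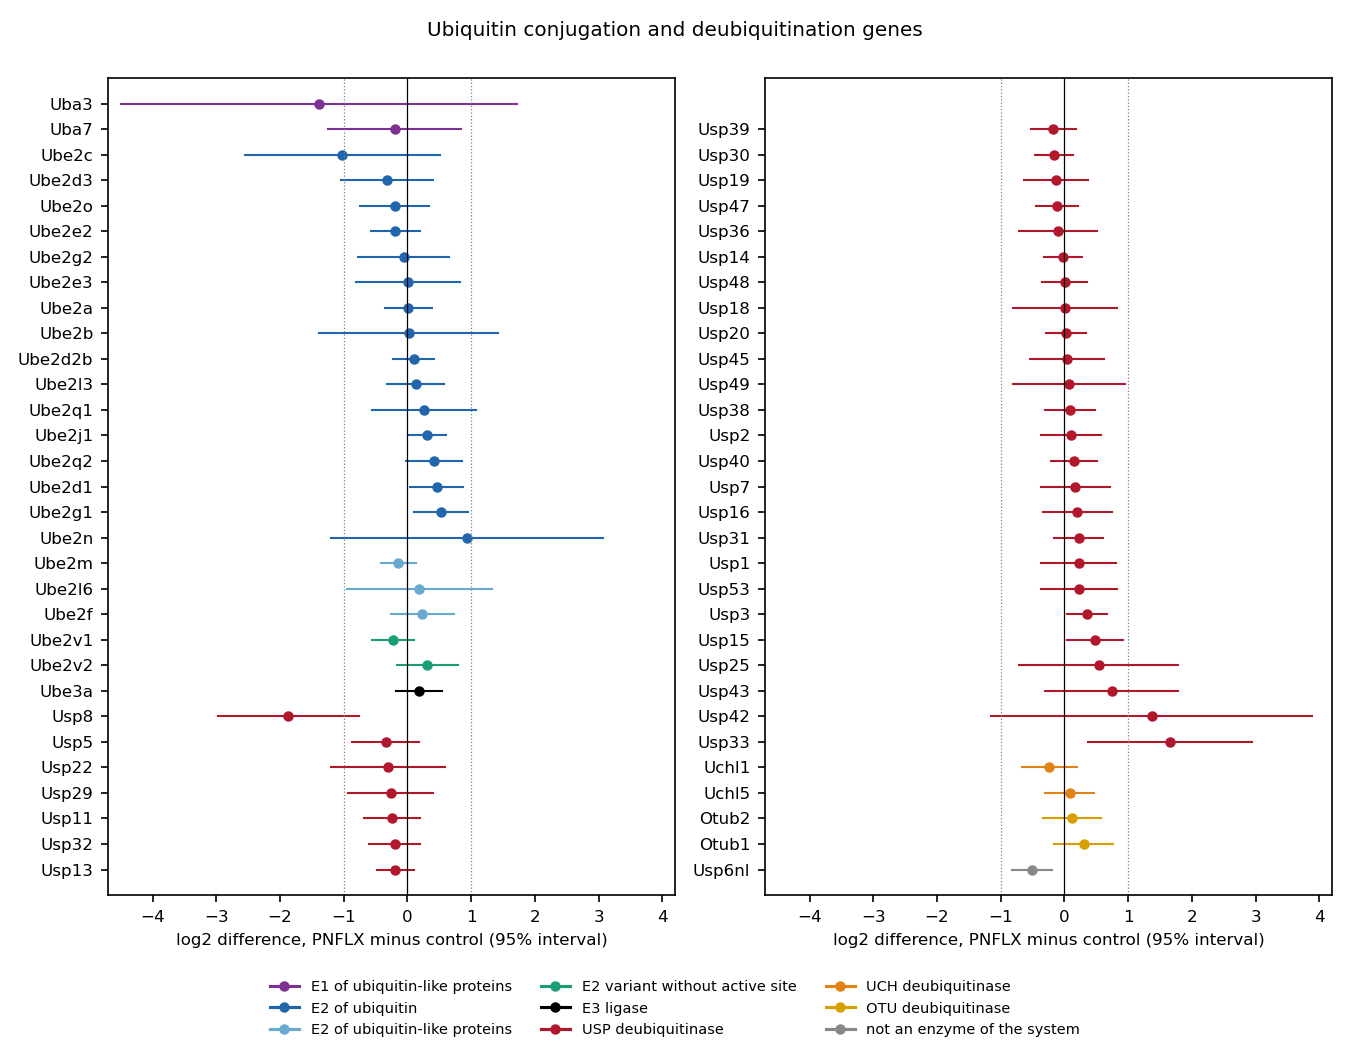
Log2 difference of 61 of the 64 members, PNFLX minus control (x axis, log2 units), with its 95% interval from limma; colours give the role, and dotted lines mark -1 and 1. Most intervals cross 0 and stay between the dotted lines, while those of Usp8 and Usp33 lie on 1 side of 0 and reach beyond them; the PNFLX signals of Usp8 were not above background, so its plotted interval is that of the measured values only.

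The 3 activating enzymes among the members serve ubiquitin-like proteins, among them Uba3 (named Ube1c in the files), the catalytic subunit for NEDD8, and Uba7 (Ube1l), which activates ISG15. All 3 had a lower mean in PNFLX (1 of 3 without scaling, 2 of 3 with normexp), and none passed the test. For Uba3 the samples were at 0.33, 0.20, 0.18 and 0.25 in the controls and at -5.94, 0.31, 0.17 and 0.86 in PNFLX, as log2 signal relative to the array's 75th percentile, the scale of every value by sample that follows. PNFLX 1 stood far below the other samples, all of which were above 0. The log2 difference of Uba3 was -1.39 (SE 1.36, adjusted p = 0.686 by limma), and without PNFLX 1 it was 0.21. Uba7, in spot row 189, was at -2.82, -2.85, -2.73 and -2.87 in the controls and at -4.48, -2.58, -2.03 and -2.98 in PNFLX. PNFLX 1 was again the lowest sample, and the difference was -0.20 (SE 0.46, adjusted p = 0.876), which turned to 0.29 without it. For Uba3 and Uba7 the lower mean therefore rests on PNFLX 1.

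Of the 16 E2 enzymes that carry ubiquitin, 11 had a higher and 5 a lower mean in PNFLX; their median difference was 0.06 and none went past the threshold, and with normexp the split was 5 and 11. The highest ranked by p was Ube2g1, an E2 of protein degradation at the endoplasmic reticulum. It was at -1.57, -1.31, -1.83 and -1.64 in the controls and at -1.49, -0.95, -0.90 and -0.92 in PNFLX. PNFLX 1 lay within the control range and the other PNFLX samples above it, for a log2 difference of 0.52 (SE 0.18, adjusted p = 0.297). Ube2j1, which is anchored in the membrane of the endoplasmic reticulum, was at -2.46, -2.24, -2.31 and -2.57 in the controls and at -1.95, -2.18, -2.14 and -2.09 in PNFLX. The groups did not overlap, with every PNFLX sample the higher, for a log2 difference of 0.31 (SE 0.13, adjusted p = 0.373).

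Ube2d1, a member of the broadly acting Ube2d group, was at 0.21, 0.45 and 0.20 in controls 2 to 4 and at 0.94, 0.67, 0.43 and 0.94 in PNFLX; the spot of control 1 had an outlier flag and was left out. PNFLX 3 lay just below control 3, and the other PNFLX samples above all controls, for a log2 difference of 0.46 (SE 0.18, adjusted p = 0.347). Its paralogue Ube2d3 was at 3.06, 4.09, 3.11 and 2.99 in the controls and, with PNFLX 1 left out for its flag, at 2.84, 2.76 and 3.36 in PNFLX. Control 2 was the highest sample, and the difference was -0.32 (SE 0.31, adjusted p = 0.679), or -0.066 without it. Ube2d2b, which the files name Ube2d2, differed by 0.10 (SE 0.14, adjusted p = 0.800). Ube2q2 was at -2.06, -2.03, -2.38 and -1.88 in the controls and at -1.86, -1.66, -1.92 and -1.23 in PNFLX. The groups overlapped through PNFLX 3, which lay below control 4, and the difference was 0.42 (SE 0.19, adjusted p = 0.411), or 0.27 without PNFLX 4.

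Ube2n, which builds the lysine-63-linked chains of signalling and DNA repair, was at -7.99, -3.70, -3.68 and -3.55 in the controls and at -3.48, -3.58, -4.02 and -4.09 in PNFLX. Control 1 stood far below the others and was not well above background, so the difference of 0.93 (SE 0.93, adjusted p = 0.693) became -0.15 without it. Its partners Ube2v1 and Ube2v2, E2 variants without an active site, had differences of -0.23 (SE 0.14, adjusted p = 0.543) and 0.31 (SE 0.21, adjusted p = 0.557). Ube2v1 was at -0.70, -0.54, -0.49 and -0.81 in the controls and at -0.85, -0.89, -0.63 and -1.07 in PNFLX, with overlap between the groups. Ube2c, the E2 of the anaphase-promoting complex, was at -5.09, -2.12, -3.85 and -4.39 in the controls and at -6.24, -4.33, -4.33 and -4.64 in PNFLX. Its samples scattered widely in both groups, 3 of 4 arrays in each were above background, and the difference was -1.02 (SE 0.67, adjusted p = 0.553). It was -0.44 without control 2 and -0.57 without PNFLX 1. The dim probe of Ube2b, a DNA repair E2, was above background in 3 control and 2 PNFLX samples and differed by 0.02 (SE 0.61), with an interval from -1.38 to 1.42. The paralogue Ube2a differed by 0.01 (SE 0.16), with an interval from -0.36 to 0.39.

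**Figure D2:**
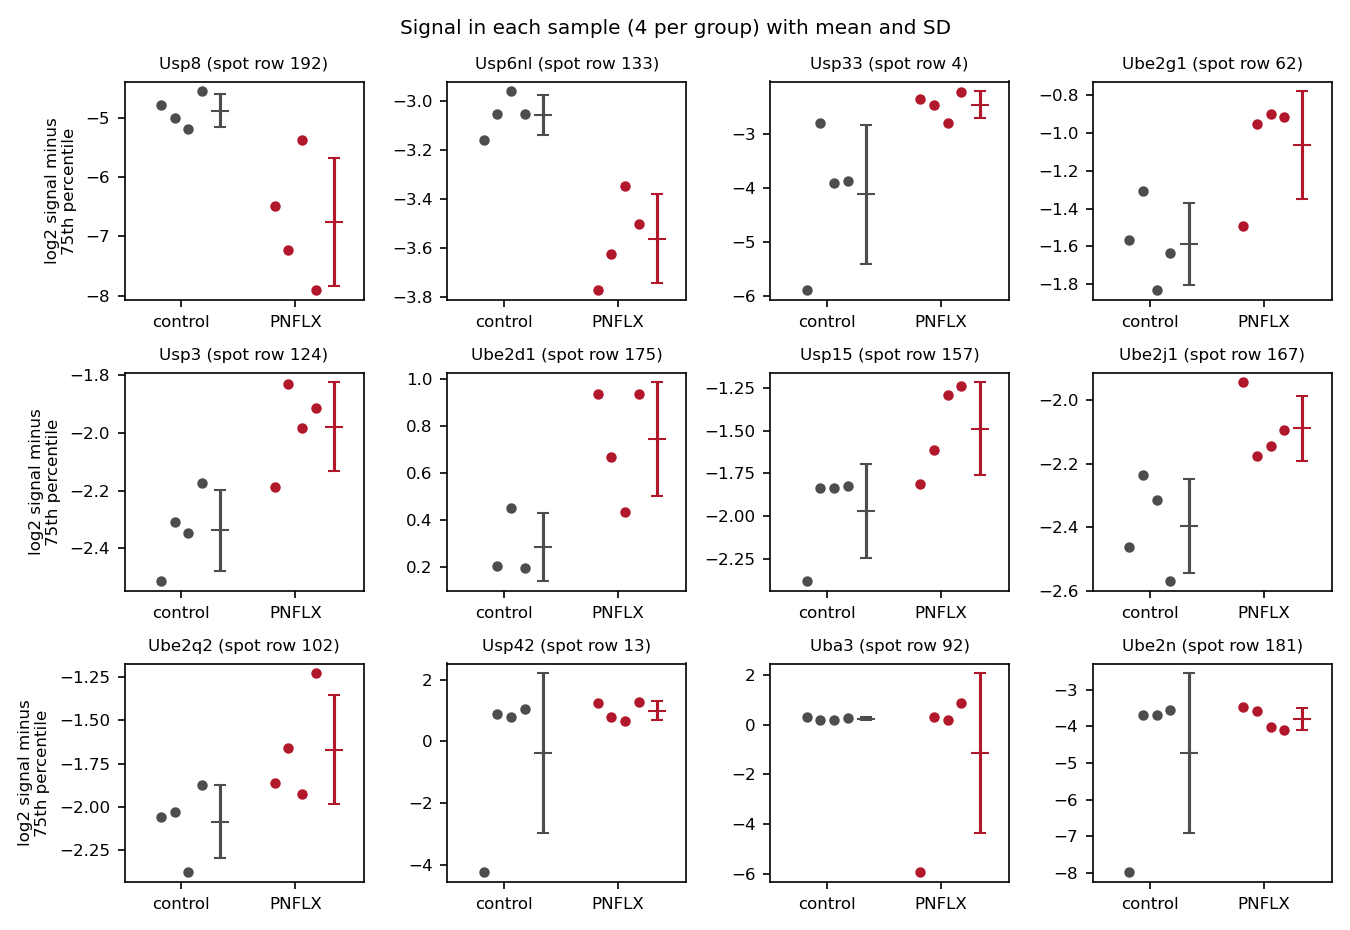
Log2 signal minus the array's 75th percentile (y axis) in each sample for 12 members, with the group mean and SD beside the points (n = 4 per group, 3 control samples for Ube2d1). For Usp8, Usp6nl, Usp15 and Ube2j1 the groups do not overlap, and for Usp42, Uba3 and Ube2n a single sample lies far below the others.

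Of the 4 E2 enzymes of ubiquitin-like proteins, among them Ube2m and Ube2f for NEDD8 and Ube2l6 for ISG15, 3 were higher and 1 lower in PNFLX (4 and 0 without scaling), with adjusted p-values from 0.630 to 0.894 by limma. Ube2m was at 4.07, 3.96, 4.03 and 4.12 in the controls and at 4.02, 3.99, 3.80 and 3.78 in PNFLX. The ranges overlapped, and the interval of its difference, -0.42 to 0.13, lay within a 2-fold change. Ube3a, the founding member of the HECT family of E3 ligases, was at 2.92, 2.64, 2.71 and 2.50 in the controls and at 3.05, 2.89, 2.98 and 2.56 in PNFLX. The groups overlapped, and the difference was 0.18 (SE 0.16, adjusted p = 0.650) with an interval from -0.18 to 0.54.

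Apart from Usp6nl, members were counted as deubiquitinases by family name, and the activity of each was not checked. These made up 36 of the members, of which 22 had a higher and 14 a lower mean in PNFLX (median 0.06). The split became 33 and 3 without scaling and 11 and 25 with normexp. The 32 counted as ubiquitin-specific proteases ran from a measured -1.87 for Usp8 to 1.65 for Usp33. Of them 26 had an interval within a 2-fold change. Usp8, which removes ubiquitin from receptors on endosomes, was at -4.78, -5.01, -5.20 and -4.56 in the controls and at -6.49, -7.24, -5.38 and -7.91 in PNFLX. All PNFLX samples lay below all controls, with measured means of -6.76 and -4.89. The probe was above background in all 4 controls and in 0 of 4 PNFLX samples, so it entered the comparison through the controls only. By limma on the measured values its adjusted p was 0.159. PNFLX signals under the lowest signal above background on their array were also raised to that level. The PNFLX mean was then 2.21-fold lower than that of the controls. That level was taken over all probes and is no detection limit of this spot, so 2.21 is not a strict bound. The measured difference of -1.87 therefore has no exact size. Its spot lies in row 192, the last row, where the median of the other 31 genes was -2.05. After row and column medians were subtracted the difference of Usp8 was -0.35. On the measured values the adjusted p was 0.0319 without PNFLX 3, and over the alternatives that could be run for this probe it went from 0.0280 to 0.745.

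Usp33, a deubiquitinase of the beta-2 adrenergic receptor, was at -5.89, -2.81, -3.92 and -3.87 in the controls and at -2.36, -2.47, -2.81 and -2.24 in PNFLX. The PNFLX samples were close together at the upper end, and control 2 reached the lowest of them. The probe was above background in 3 of 4 controls and in all 4 PNFLX samples. The log2 difference was 1.65 (SE 0.56, adjusted p = 0.280). Without control 1 the difference of Usp33 was 1.06, and without control 2 it was 2.09. Its spot lies in row 4, where the median of 44 other genes was 0.35, and after subtraction of row and column medians the difference was 0.52. Usp22, a subunit of the SAGA complex that acts on histones, lies in row 2, where the median of 35 other genes was 1.11. It was at -3.23, -1.85, -3.25 and -3.11 in the controls and at -2.62, -2.96, -3.10 and -3.98 in PNFLX. Control 2 was the highest sample, and the groups overlapped. The difference was -0.31 (SE 0.39, adjusted p = 0.765) as measured, 0.03 without control 2, and -1.43 (adjusted p = 0.136) after row and column medians were subtracted.

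**Figure D3:**
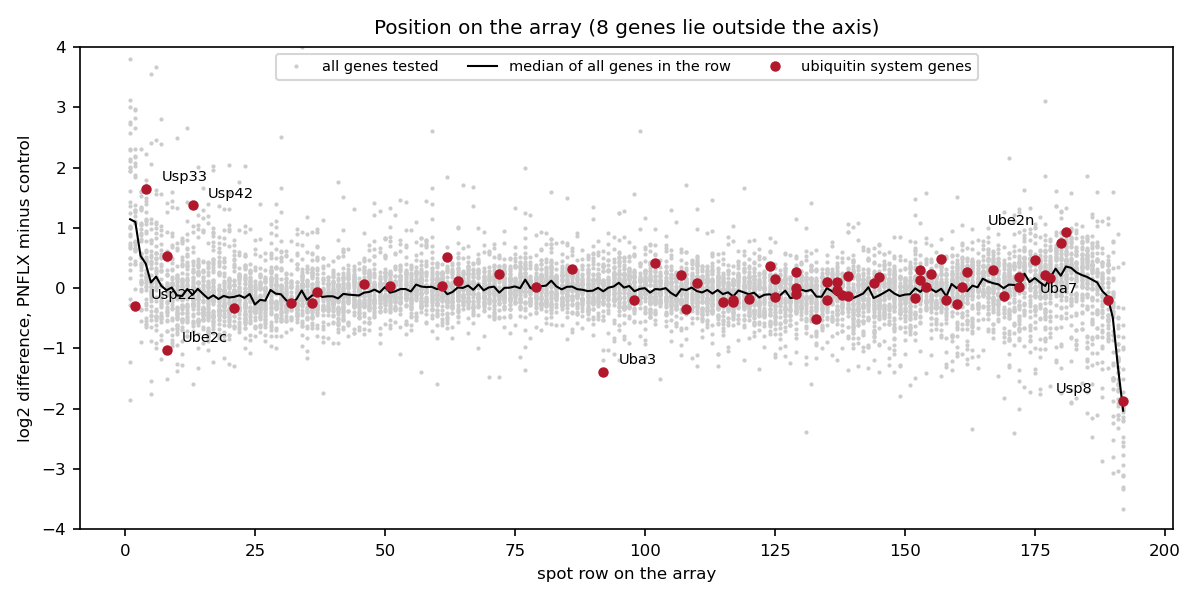
Log2 difference, PNFLX minus control (y axis), against the spot row on the array (x axis) for all genes tested (grey), the median of each row (line) and the 64 members (red); 8 genes lie outside the axis. The row median rises above 1 in the first rows and falls to about the value of Usp8 in the last, while 52 of the 64 members lie in rows 21 to 172.

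Away from the ends, in rows 21 to 172, 30 members were higher and 22 lower in PNFLX, with a median of 0.02. Usp15, which acts in TGF-beta signalling among other pathways, was at -2.38, -1.83, -1.83 and -1.83 in the controls and at -1.81, -1.61, -1.29 and -1.24 in PNFLX. The groups did not overlap, although PNFLX 1 lay only just above the controls, for a log2 difference of 0.48 (SE 0.19, adjusted p = 0.350). Usp3, a histone deubiquitinase, was at -2.51, -2.31, -2.35 and -2.17 in the controls and at -2.19, -1.83, -1.98 and -1.91 in PNFLX. PNFLX 1 lay within the control range and the other 3 above it, and the difference was 0.36 (SE 0.14, interval 0.05 to 0.67, adjusted p = 0.330).

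Usp43, in row 180, was at -4.45, -4.91, -4.51 and -3.90 in the controls and at -4.50, -4.06, -2.30 and -3.94 in PNFLX. PNFLX 3 was the highest sample, and the difference of 0.74 (SE 0.46, adjusted p = 0.529) was 0.28 without it. Usp42 was at -4.23, 0.89, 0.78 and 1.06 in the controls and at 1.25, 0.79, 0.67 and 1.28 in PNFLX. Control 1 stood far below the others, which overlapped between the groups. The difference was 1.37 (interval -1.15 to 3.89, adjusted p = 0.618), and 0.09 without control 1.

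For Usp14, Uchl5 and Usp7 the intervals lay within a 2-fold change either way. Usp14, which trims chains at the proteasome, was at -0.19, -0.35, -0.54 and -0.33 in the controls and at -0.53, -0.29, -0.33 and -0.37 in PNFLX. The groups covered the same range, and the difference was -0.03 (SE 0.13) with an interval from -0.32 to 0.27. Uchl5, the other ubiquitin hydrolase that docks at the proteasome, differed by 0.08 (SE 0.17), with an interval from -0.30 to 0.47. Usp7, which acts on p53 and MDM2, differed by 0.17 (SE 0.24), with an interval from -0.37 to 0.71.

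Uchl1, an abundant neuronal protein, was at 5.03, 4.77, 4.90 and 4.89 in the controls and at 4.85, 4.87, 4.80 and 4.13 in PNFLX. PNFLX 4 was the lowest sample, and the other PNFLX samples lay within the control range. The difference was -0.23 (SE 0.19, adjusted p = 0.619), and -0.06 without PNFLX 4. Otub1, an OTU-family enzyme that cuts lysine-48-linked chains and also blocks E2 enzymes, was at -1.32, -1.51, -1.92 and -2.04 in the controls and at -1.26, -1.29, -1.33 and -1.72 in PNFLX. The groups overlapped, and the difference was 0.30 (SE 0.20, adjusted p = 0.558). It was 0.19 without control 4 and 0.41 without PNFLX 4. Otub2 differed by 0.12 (SE 0.20, adjusted p = 0.826).

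Usp6nl carries a matching name but is no enzyme of the system. This GTPase-activating protein for Rab proteins was at -3.16, -3.05, -2.96 and -3.05 in the controls and at -3.77, -3.63, -3.34 and -3.50 in PNFLX. The groups did not overlap, with every PNFLX sample the lower, and the spread within each group was small. The log2 difference was -0.51 (SE 0.13, adjusted p = 0.173), which is 1.42-fold lower, in row 133, where the median of 48 other genes was -0.13. After row and column medians were subtracted the difference was -0.33 (adjusted p = 0.598), and without scaling between arrays it was -0.21.

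Repeated spots show how closely the same sequence was measured at different places of an array. The spots of Usp13, a deubiquitinase of the Usp5 group, in rows 135 and 106, gave differences of -0.19 and -0.19, with a median gap of 0.034 log2 units within a sample. Usp31 in rows 177 and 44 gave 0.22 and 0.25. Usp20, printed above, gave 0.03 in row 51 and -0.30 in row 49, with the largest gap, 0.485, in PNFLX 2. The dim probe of Ube2b gave 0.02 in row 172 and 0.81 in row 60, with gaps of up to 2.63. In row 60 it was above background in 0 controls and 2 PNFLX samples and did not pass the filter. Only Usp11 was covered by 2 different sequences, listed in descending order for the spot used and in ascending order for the other. Whether both read the same strand was not tested. The spot used, in row 32, differed by -0.24, and the other, in row 6, by 1.52 as measured. That other spot was above background in 0 controls and 3 PNFLX samples and did not pass the filter, so 1.52 has no exact size.

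**Figure D4:**
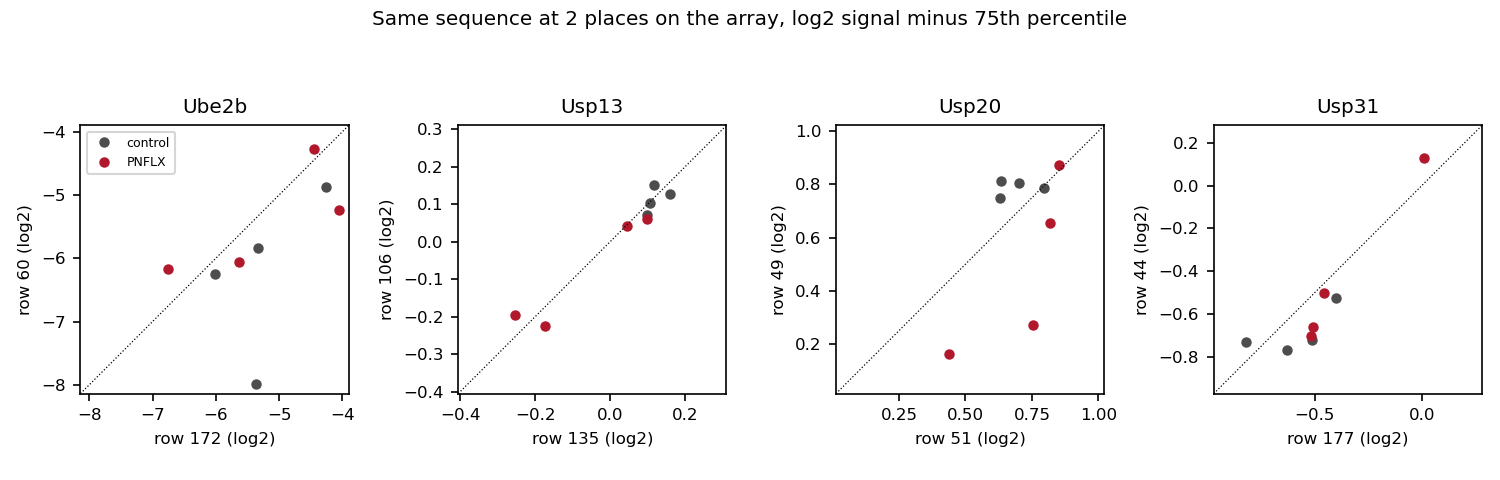
Log2 signal minus the array's 75th percentile of the same probe sequence at its 2 places on the array (x axis, the spot used; y axis, the other spot), 1 point per sample, with the line of equality. The points of Usp13 stay close to the line, 2 PNFLX samples of Usp20 lie well below it, and those of the dim Ube2b scatter.

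PNFLX 4 held the highest value of 19 members and the lowest of 17 (29.7% and 26.6%, against 21.9% and 28.1% of all genes). Without it 33 members were higher and 31 lower in PNFLX. Of genes of the same families that the files list under other names (Ube2k, Uchl3, Ube2d2, Uba2 and Uba6), all 5 had a higher mean in PNFLX, with a median of 0.18, and none passed; with normexp 2 were higher and 3 lower. Uba6, an E1 of ubiquitin, differed by 0.91 (SE 0.61, adjusted p = 0.560), with 2 control and 3 PNFLX samples above background, and Uchl3 by 0.18 (SE 0.18, adjusted p = 0.694). Without PNFLX 4 these were 1.45 and 0.035.

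The rest of the pathway was counted in 7 lists, in which 1 gene passed limma's threshold, on a single control sample; no gene with more than 1 sample in each group did. The splits into higher and lower that follow hold for the main processing. Without scaling more genes were higher than lower in each of the lists. With normexp the majority turned in the HECT list (5 and 10), the RING list (13 and 35) and the ubiquitin genes (2 and 1). It was lost there for ubiquitin-like modifiers (14 and 14). With quantile normalization it turned in the HECT list (7 and 8), the ubiquitin genes (2 and 1) and the other deubiquitinases (4 and 5). The gene that passed was Rps27a, which encodes ubiquitin fused to a ribosomal protein, with a log2 difference of 5.30 (adjusted p = 0.00491, where the lone control is assumed to vary like the PNFLX samples). It lies in spot row 3, and the spots of 3 controls had outlier flags. The value therefore rests on control 1 at 0.72 against 6.23, 6.11, 5.85 and 5.88 in PNFLX, and without control 1 it could not be fitted. After row and column medians were subtracted the difference of Rps27a was 3.85, still on control 1 alone. With flagged spots kept, so that the 3 flagged controls were used, Rps27a also passed the threshold.

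Among 15 HECT ligases outside the Ube3 genes, 8 were higher and 7 lower in PNFLX. Nedd4, a ligase of membrane proteins, differed by 0.62 (SE 0.16, adjusted p = 0.143, row 174), and its paralogue Nedd4l by -0.65 (SE 0.20, adjusted p = 0.230); neither pair of groups overlapped. Of 48 RING and other ligases 27 were higher and 21 lower, led by Marchf7 at 0.69 (adjusted p = 0.254) and Vhl, the substrate receptor for hypoxia-inducible factor, in row 178, at 0.45 (adjusted p = 0.262), which was 0.11 after row and column medians were subtracted. Of 36 genes of cullin ligases and the anaphase-promoting complex 16 were higher and 20 lower. In that list Cand1, the cullin exchange factor, differed by -2.34 on 3 control spots and a single PNFLX spot, that of PNFLX 2 (adjusted p = 0.0602, with the lone spot assumed to vary like the controls). Elob, in row 192, differed by -3.09 (adjusted p = 0.0615), and by -1.67 (adjusted p = 0.417) after row and column medians were subtracted.

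Of 9 deubiquitinases of other families 5 were higher and 4 lower, with Bap1 at -0.61 (adjusted p = 0.410; -0.33 without PNFLX 4) and Cops5 at -0.31 (adjusted p = 0.465; -0.16 after row and column medians were subtracted). Of 18 ubiquitin receptors, shuttles and p97 genes 7 were higher and 11 lower, with Tsg101, of the endosomal sorting complex, at 0.53 (adjusted p = 0.174) and Ubqln1 at -0.47 (adjusted p = 0.302; -0.18 after that subtraction). Of 28 genes of ubiquitin-like proteins 16 were higher and 12 lower. Isg15, in row 1, where the row median was 1.14, differed by 2.30 (adjusted p = 0.0716), and by 1.38 after row and column medians were subtracted. Ufm1, in row 7, differed by 0.36 (adjusted p = 0.348), which turned to -0.075 after that subtraction.

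Markers of other cell types were set beside these values, and none passed the threshold. All 7 oligodendrocyte markers were lower in PNFLX (median -0.27; 2 of 7 without scaling or with normexp), and the log2 of their summed signal lay between 6.04 and 6.37 in the controls and between 5.60 and 6.26 in PNFLX. Of 7 neuron markers 2 were higher and 5 lower (median -0.18; 6 and 1 without scaling), with sums from 5.94 to 6.16 and from 5.54 to 6.08. Of 7 microglia markers 6 were lower (0 without scaling), with sums from 4.10 to 4.56 and from 4.05 to 4.25; astrocyte markers split 3 and 3, and of 5 endothelial markers 2 were higher and 3 lower. Of 7 markers of meninges and fibroblasts 6 were higher (median 0.25; 7 without scaling and 5 with normexp), with sums from 3.77 to 4.13 and from 4.08 to 5.35, and all 4 blood markers were higher (median 0.27; 0 with normexp). All 4 choroid plexus markers were lower in PNFLX (median -0.46; 3 without scaling). Their sums went from -2.32 to 5.17 in the controls and from -1.58 to 1.41 in PNFLX. Taken from each gene's mean over the 8 samples, the median deviation of oligodendrocyte, neuron and microglia markers was lowest in PNFLX 4 (-0.44, -0.47 and -0.41). In the other PNFLX samples these medians lay between -0.19 and 0.22. Astrocyte markers were at 0.14 in PNFLX 4. Markers of meninges and fibroblasts were highest in PNFLX 1 (1.36). Those of choroid plexus were highest in control 4 (4.17), against -2.35, -0.59 and 0.08 in controls 1 to 3 and -1.88 to 1.39 in PNFLX. The part of these markers in the members' values was not tested.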

How the data were processed

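Each of the 8 samples was hybridised to 1 single-colour array. The deposited intensity values were made with Agilent Feature Extraction 10.5.1.1, per the file headers, which name detrending within the array and surrogates for low signals; they were not scaled between arrays. The authors' deposited log2 table matched the values used here, once those were centred on each probe's median, within 0.00241.

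Processed signals were divided by their array's 75th percentile and put on the log2 scale. Outlier flags removed 521 spots in all, and 11600 of 15207 probes that were above background in 4 or more samples were kept. Names came from a RefSeq table (GRCr8, names only), which named 14318 probes. The brightest probe of each gene was taken, and the groups were tested over 9443 genes and unnamed probes (limma 3.58.1, R 4.3.3, empirical Bayes, Benjamini-Hochberg adjustment, threshold 0.05), so every adjusted p comes from limma. Intervals are 95% intervals from that model. The steps were tested on simulated data.

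The members and the lists of pathway and marker genes were chosen with earlier results of these data known. Members described singly are the 12 of smallest p, those whose groups do not overlap, those in the first or last 5 spot rows, a fixed list of well-known members, those with several kept probes and, chosen after their values were seen, those with an SE above 0.6. Of each pathway list the 2 genes of smallest p and any past the threshold are named. A few other members are given with values beside a relative or partner. Some members and pathway genes that these rules would name are not reported here; they remain in the counts.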

Additional observations from a re-analysis of the deposited data

Results flagged for a closer look

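Of 123 groups of 4 samples, 15 held a highest or lowest sample whose gap to the next, as a share of the group's range, exceeded Dixon's 95% critical value; chance flags about 1 in 20 groups. PNFLX 4 was the distant sample for Otub1 (-1.72), Uchl1 (4.13), Usp1 (1.47), Usp16 (1.07), Usp19 (-0.53) and Usp31 (0.0088), all as log2 signal relative to the array's 75th percentile. PNFLX 1 was it for Uba3 (-5.94), Ube2c (-6.24) and Ube2g1 (-1.49). Control 1 was it for Ube2l6 (-3.88), Ube2n (-7.99), Usp15 (-2.38) and Usp42 (-4.23), and control 2 for Ube2d3 (4.09) and Usp22 (-1.85).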

How the results depend on the processing

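Over all genes, 48 passed limma's threshold; 27 did with normexp background (7 higher and 20 lower), 108 without scaling between arrays (92 and 16), 73 with quantile normalization (33 and 40), 26 without a filter on dim probes (18 and 8), 25 with probes above background on all 8 arrays, 10 after row and column medians were subtracted, 0 without the first and last 5 spot rows (1091 at an unadjusted p under 0.05), 356 with array weights (131 and 225), and 14 to 60 when 1 sample was left out. Same-numbered samples had correlated deviations of 0.0104, 0.0860, 0.0880 and 0.0213, and 2 of 4 numbers matched best with themselves, so the numbers were not used as pairs; with the replicate block 5 genes passed. Of the members 1 passed with quantile normalization (Usp8), 2 with array weights (Usp6nl and Usp8), and 0 to 1 (Usp8, without PNFLX 3) when 1 sample was left out; Usp8 was not above background in PNFLX and entered through its controls alone. The members' median was -0.20 with normexp and 0.33 without scaling, where that of all genes moved to -0.39 and 0.26, and -0.012 to 0.11 when 1 sample was left out. In pathway genes outside the members, a count set after the data were seen, 5 passed with array weights, 3 each with an intensity trend, no scaling and quantile normalization, 2 with normexp, 0 with the replicate block or without the end rows, and 0 to 2 when 1 sample was left out.

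Of 29 members described, 8 kept their sign under each alternative that gave them a value; Usp8 and Usp33, among these 8, have none with probes above background on all 8 arrays or without the end rows, and Ube2c none with probes above background on all 8 arrays. The signs turned, with the cause not tested, as follows. With normexp the values were Otub1 -0.069, Ube2b -0.95, Ube2d1 -0.043, Ube2d3 0.95, Ube2j1 -0.47, Ube2m 0.11, Ube2n -0.97, Ube2q2 -0.11, Uchl1 0.00134, Usp15 -0.18, Usp3 -0.31, Usp43 -0.71, Usp7 -0.66, Cops5 0.52, Marchf7 -0.41, Nedd4l 0.25, Tsg101 -0.22, Uba6 -0.78, Ubqln1 0.083 and Vhl -0.75. Without scaling they were Uba7 0.10, Ube2m 0.15, Ube2v1 0.070, Uchl1 0.062, Usp13 0.11 and Usp14 0.27. With array weights they were Uba7 0.047, Ube2b -0.39, Uchl5 -0.017, Usp14 0.058 and Usp7 -0.073. With row and column medians subtracted they were Ube2v1 0.042, Uchl5 -0.054, Usp14 0.19, Usp20 -0.019, Usp7 -0.10 and Ufm1 -0.075. With quantile normalization Ube2b turned to -4.95e-05, and with the mean of a gene's probes Usp20 -0.14. With 1 sample left out, Uba3 ran from -2.06 to 0.21, Uba7 from -0.53 to 0.29, Usp14 from -0.087 to 0.030, Usp20 from -0.018 to 0.12, Ube2b from -0.37 to 0.53, Uchl5 from -0.064 to 0.16, Ube2n from -0.15 to 1.33 and Usp22 from -0.49 to 0.032. Dim probes such as Usp8, Ube2n and Ube2b limit what can be read from their values.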
